A study of Rattus norvegicus with 9 samples.

Results

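Cytochrome P450 families 1 to 4 are the haem enzymes that carry most of the oxidation of drugs, steroids and fatty acids in the liver. The genes described here are the rows whose rat symbol begins with Cyp1, Cyp2, Cyp3 or Cyp4 followed by a subfamily letter and that reached at least 1 RPKM in 3 or more of 9 libraries (RPKM is reads per kilobase of gene model per megaread of library). This rule kept 46 genes of 16 subfamilies, of 62 rows of these families and 40154 gene rows in all. RNA from whole liver of Sprague-Dawley rats, wild type and 5 months old, was sequenced in 3 groups of 3 libraries. The HepLPC group had cirrhosis and received an injection of HepLPCs, progenitor-like liver cells derived from rat hepatocytes, and the PBS group had cirrhosis and received phosphate-buffered saline in the same way. The normal group had received neither carbon tetrachloride (CCl4), the hepatotoxin given to the cirrhotic rats, nor an injection. The dose of CCl4, the time after injection and the sex of the rats are not given in the sources used here. PBS against normal therefore holds injury and injection together, and these cannot be told apart, nor can transcripts of injected rat cells and host cells. The labels number the replicates without stating that each is a separate animal, so the p-values reflect only how far these libraries differ within a group, which may be partly technical.

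A P450 enzyme binds its substrate beside a haem group and receives electrons from NADPH through P450 oxidoreductase. Families 1, 2 and 3 act mainly on drugs, toxins and steroids, and family 4 mainly on fatty acids and eicosanoids. Ligand-activated receptors set the level of many of the genes: the aryl hydrocarbon receptor acts on Cyp1a genes, CAR and PXR on Cyp2b and Cyp3a genes, and PPARA on Cyp4a genes. In rat liver several Cyp2c, Cyp2a and Cyp3a genes also differ between males and females under the pattern of growth hormone secretion. Cyp2e1, which lies in hepatocytes around the central vein, is the enzyme that converts CCl4 to its toxic radical.

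Depth was 17.4 to 21.8 M reads per library. PBS replicate 1 and HepLPC replicate 2 stood apart from the other 7 libraries. Across genes, their signed log2 deviation from the mean of their own group fell as gene length grew, so longer genes tended to read lower. Spearman correlations were -0.564 and -0.528, against -0.157 to 0.423 elsewhere, given as descriptions of single libraries. The median deviation of the P450 genes was -0.04 in PBS replicate 1 and -0.08 in HepLPC replicate 2 on the log2 scale. It ran from -0.10 to 0.17 in the other 7 libraries, and a median does not show shifts of single genes. Calls that were lost without PBS replicate 1 and HepLPC replicate 2 are given with their values without them. The labelled tissue was checked on hepatocyte genes: Alb (albumin) lay between 47139 and 68724 RPKM over the 9 libraries, and the 3 genes given as P450 markers were all detected, Cyp2e1 and Cyp2c11 at high levels in every library and Cyp2c24 at under 1 RPKM in the normal ones.

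Summed over the 46 genes, P450 transcripts were lower in both cirrhotic groups than in normal livers. The sum was 11000.2, 10960.5 and 11605 RPKM in HepLPC replicates 1 to 3 and 10605, 11899 and 8162.5 RPKM in PBS replicates 1 to 3, against 12906, 15075 and 14812 RPKM in normal replicates 1 to 3. Every library of both cirrhotic groups lay below every normal library, and the HepLPC and PBS libraries overlapped. These sums made up 1.61% to 2.02% of all RPKM in HepLPC livers, 1.45% to 2.11% in PBS livers and 2.24% to 2.54% in normal livers. In bulk RNA, fewer hepatocytes and less RNA per hepatocyte cannot be told apart.

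The Cyp2c subfamily, 8 genes, was the main part of the sum. It held 5412, 4899.8 and 5604 RPKM in HepLPC livers, 4804, 5779 and 3832 RPKM in PBS livers and 6903, 8027 and 6719.8 RPKM in normal livers, so both cirrhotic groups lay below the normal one without overlap. Its share of the P450 sum was 44.7% to 49.2% in HepLPC livers, 45.3% to 48.6% in PBS livers and 45.4% to 53.5% in normal livers. Next came Cyp3a, with 1595 ± 269, 1359 ± 679 and 1609 ± 848 RPKM (mean ± SD, n = 3) in HepLPC, PBS and normal livers, then Cyp2e, whose only member is Cyp2e1, and Cyp2d with 1046 ± 69.1, 915 ± 128 and 1109.9 ± 90.9 RPKM in the same order. The spread of the Cyp3a sums was as wide as the differences between groups.

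Of the 16 subfamily sums, PBS libraries lay above normal libraries without overlap in 2 (Cyp1a and Cyp4b) and below in 6 (Cyp2a, Cyp2c, Cyp2e, Cyp2f, Cyp4a and Cyp4f), and the groups overlapped in 8. HepLPC libraries lay above PBS libraries in 2 (Cyp2f and Cyp4f), below in 1 (Cyp4b) and overlapped in 13. Against normal libraries, HepLPC libraries lay above in 1 (Cyp1a), below in 3 (Cyp2c, Cyp2e and Cyp2f) and overlapped in 12. Sums were not tested, since a few abundant genes set them.

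**Figure D1:**
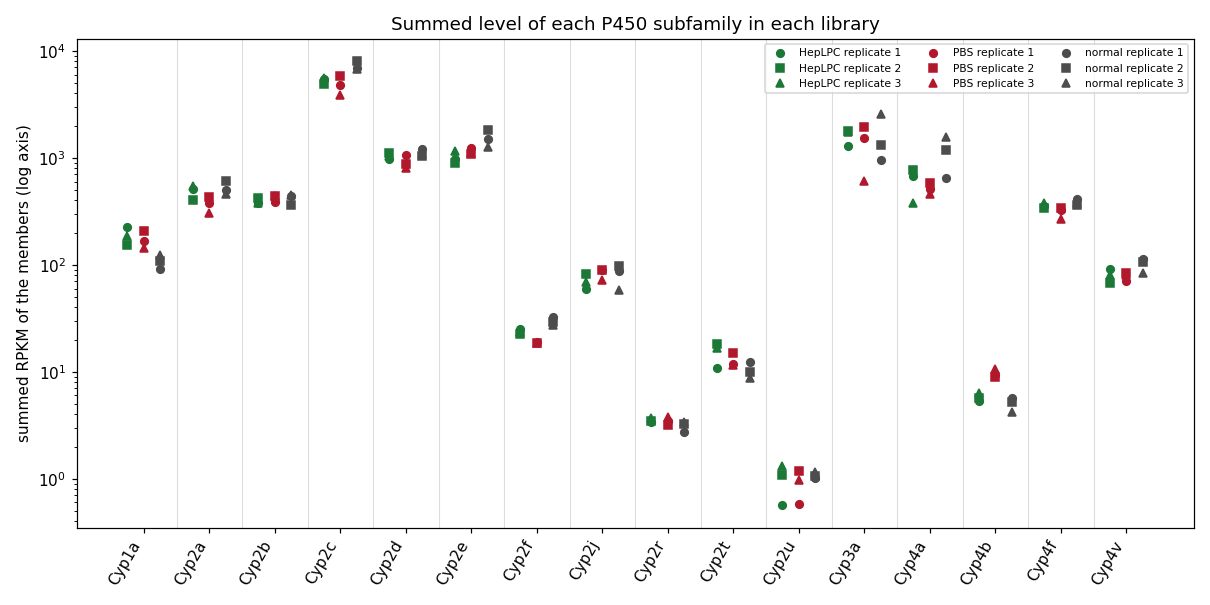
Summed RPKM of each of the 16 P450 subfamilies (log axis) in HepLPC, PBS and normal livers, 1 point per library. Cyp2c has the highest sums throughout, and Cyp4a and Cyp2c are lower in the PBS libraries than in the normal ones.

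PBS against normal livers shows how the P450 genes stood in injured livers. Of the 46 genes, 5 rose (10.9%) and 4 fell (8.7%) in PBS livers, by limma on log2(RPKM + 1), with a Benjamini-Hochberg adjustment across 11124 genes and calls under 0.05. Over those 11124 genes 10.4% rose and 0.944% fell, so the share of P450 genes that rose was near that of all genes and the share that fell was higher; the difference between these shares was not tested. The genes that rose were Cyp1a1, Cyp2c24, Cyp3a62, Cyp4a8 and Cyp4b1, and those that fell were Cyp2a2, Cyp2c11, Cyp2f4 and Cyp4a3. Cyp2c24 was under 1 RPKM in every normal library and met the expression rule only through cirrhotic livers. Its place in the count of genes that rose was therefore partly set by the rule. The median log2 fold change was -0.22 over the P450 genes and 0.18 over all tested genes. With the libraries rescaled by the median of ratios, which moved the median of all genes to -0.04, the P450 median was -0.49, the genes called over the whole table split into 530 higher and 276 lower in place of 1157 and 105, Cyp3a62 and Cyp4a8 were no longer called higher, and Cyp4f1 and Cyp4v3 were called lower. The P450 genes then split into 3 higher and 6 lower in place of 5 and 4.

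In all, 17 P450 genes had a positive and 29 a negative log2 fold change, while 76.1% of all tested genes were positive and 23.9% negative. After the rescaling 10 P450 genes were positive and 36 negative. The PBS and normal libraries did not overlap in 8 P450 genes that were higher in PBS livers (17.4%, against 32.7% of all genes) and in 10 that were lower (21.7%, against 4.92% of all genes). Besides the called genes these were Cyp1a2, Cyp2c12 and Cyp2j10 on the higher side, and Cyp2c23, Cyp2e1, Cyp3a18, Cyp4a1, Cyp4a2 and Cyp4f1 on the lower side. Of the 8 higher genes, Cyp2c24 and Cyp2j10 were under 1 RPKM in every normal library and met the expression rule only through cirrhotic livers, so their place in this count was partly set by the rule.

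HepLPC against PBS livers shows how the same genes stood after injection of cells. No P450 gene rose and 2 fell (4.35%), Cyp2c24 and Cyp4b1, by limma with Benjamini-Hochberg adjustment; over all tested genes 0.135% rose and 2.93% fell. At an unadjusted p under 0.05, 3 P450 genes were higher and 6 lower, and limma with voom weights on reads recovered from the RPKM values called the same 2 genes. The median log2 fold change was 0.07 over the P450 genes and -0.14 over all genes, and after the rescaling 0.29 and 0.04. The P450 median was -0.03 without PBS replicate 3 and 0.02 without HepLPC replicate 3, so its sign depended on PBS replicate 3. The libraries did not overlap in 3 genes that were higher in HepLPC livers (Cyp2a2, Cyp2c11 and Cyp2f4; 6.52%, against 2.79% of all genes) and in 6 that were lower (Cyp1a1, Cyp2b1, Cyp2b2, Cyp2c12, Cyp2c24 and Cyp4b1; 13.0%, against 15.6% of all genes). The same PBS libraries enter this comparison and the one against normal livers, so opposite signs in both are not independent of each other. Cyp2b1 was under 1 RPKM in 2 of the 3 HepLPC libraries and met the expression rule through the PBS and normal ones.

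HepLPC against normal livers gave no called P450 gene in either direction by limma, while 0.0809% of all tested genes were called (0.0449% higher and 0.036% lower). At an unadjusted p under 0.05 there were 5 P450 genes higher and 7 lower, and voom called 0 of the 46. The libraries did not overlap in 4 genes that were higher in HepLPC livers (Cyp1a1, Cyp1a2, Cyp2c24 and Cyp4a8; 8.7%, against 12.3% of all genes) and in 7 that were lower (Cyp2b1, Cyp2b2, Cyp2c11, Cyp2e1, Cyp2f4, Cyp3a18 and Cyp4a3; 15.2%, against 3.51% of all genes). Cyp2c24 met the expression rule only through cirrhotic livers, and Cyp2b1 through the PBS and normal ones. Their places in these counts were therefore partly set by the rule. The median log2 fold change was -0.12 over the P450 genes and 0.05 over all genes.

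**Figure D2:**
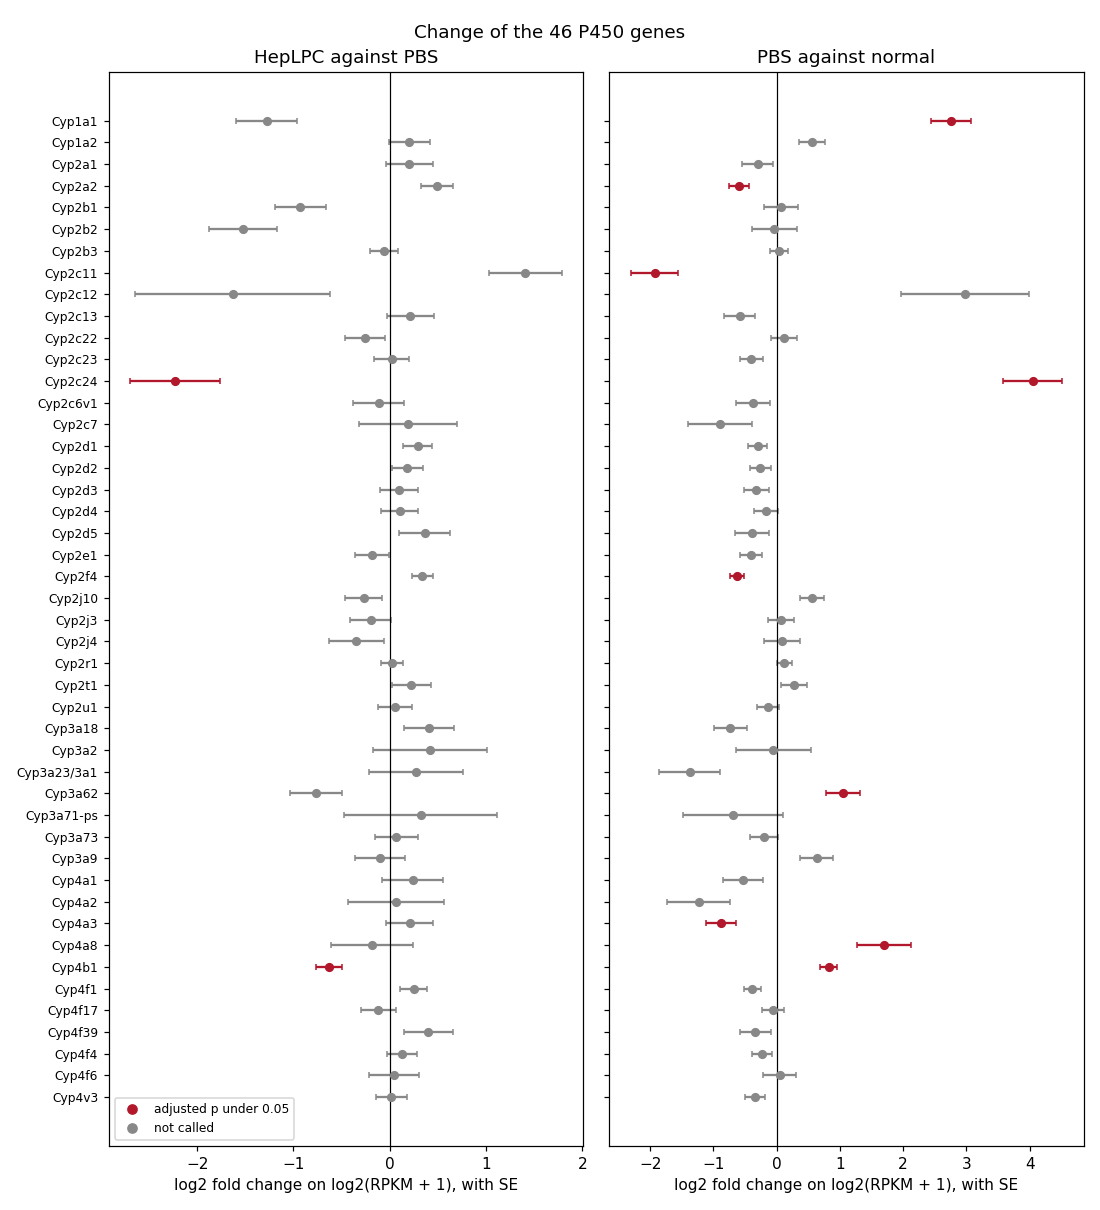
Log2 fold change on log2(RPKM + 1) with its standard error for each of the 46 P450 genes, HepLPC against PBS in the left panel and PBS against normal in the right one, with genes called by limma in red. Cyp2c24 has the highest and Cyp2c11 the lowest value for PBS against normal, 4.05 and -1.93.

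In the Cyp1a subfamily, Cyp1a1, an enzyme of polycyclic hydrocarbon metabolism that is very low in uninduced liver, rose in PBS livers. It was at 3.89, 4.34 and 5.39 RPKM in HepLPC livers, 10.9, 9.34 and 18.3 RPKM in PBS livers and 0.268, 1.09 and 1.96 RPKM in normal livers. The 3 groups did not overlap, with PBS highest and normal lowest. The log2 fold change was 2.75 for PBS against normal (SE 0.32, limma adjusted p = 0.00097), a ratio of mean RPKM of 11.6, and this call held in all 16 alternative settings. For HepLPC against PBS it was -1.28 (SE 0.32, adjusted p = 0.065; 0.0447 without normal replicate 1) and for HepLPC against normal 1.47 (adjusted p = 0.195).

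Cyp1a2, the constitutive member that metabolizes aromatic amines and caffeine, was at 221, 148 and 182 RPKM in HepLPC livers, 156, 199.6 and 125 RPKM in PBS livers and 91.9, 108 and 121 RPKM in normal livers. All 6 libraries of cirrhotic livers lay above the 3 normal ones. No test passed, with log2 fold changes of 0.56 for PBS against normal (SE 0.21, limma adjusted p = 0.119) and 0.76 for HepLPC against normal (SE 0.21, adjusted p = 0.285). Ahr, the receptor that induces both genes, was at 8.13 ± 1.64 RPKM in HepLPC livers, 11.3 ± 1.66 RPKM in PBS livers and 7.74 ± 2.08 RPKM in normal livers (SD, n = 3), and did not pass either (0.51 for PBS against normal, adjusted p = 0.152).

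Among the Cyp2c genes, Cyp2c24 and Cyp2c11 moved in opposite directions in PBS livers. Both lie on chromosome 1, where they follow each other when only the P450 rows of these families are ordered. Cyp2c24, a member with little known function, was at 2.08, 1.74 and 8.49 RPKM in HepLPC livers, 12.3, 17.6 and 32.3 RPKM in PBS livers and 0.0950, 0.304 and 0.287 RPKM in normal livers. The groups were fully separate, PBS above HepLPC above normal, and HepLPC replicate 3 lay well above the other two of its group. The normal values rest on 4, 14 and 13 reads, against 464, 768 and 1348 reads in PBS livers. Since Cyp2c24 was under 1 RPKM in every normal library, it met the rule only through the cirrhotic libraries. Its log2 fold change was 4.05 for PBS against normal (SE 0.46, limma adjusted p = 0.000967), held in all 16 alternatives, and the ratio of mean RPKM was 90.8.

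For HepLPC against PBS the log2 fold change of Cyp2c24 was -2.23 (SE 0.46, limma adjusted p = 0.0365). This call was lost in 12 of the 16 alternatives, among them leaving out both libraries that stood apart (-2.20, adjusted p = 0.0571) and leaving out singly any normal library, PBS replicate 2 or 3 or HepLPC replicate 1 or 2 (adjusted p of 0.0615 to 0.144). The sign stayed negative in each, from -2.80 to -1.87.

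Cyp2c11, the male-predominant testosterone hydroxylase of rat liver, was at 710, 1029 and 725 RPKM in HepLPC livers, 258, 597 and 183 RPKM in PBS livers and 1395, 1047 and 1077 RPKM in normal livers. The groups did not overlap, but HepLPC replicate 2 and normal replicate 2 were almost level. PBS replicate 2 lay nearest to the HepLPC libraries. Cyp2c11 fell by 1.93 on the log2 scale in PBS livers against normal (SE 0.38, limma adjusted p = 0.0116), in all 16 alternatives. For HepLPC against PBS it was 1.41 (SE 0.38, adjusted p = 0.0845); without PBS replicate 2 it was 1.89 (adjusted p = 0.007). For HepLPC against normal the log2 fold change was -0.52 (SE 0.38, limma adjusted p = 0.745). Among the Cyp2c sum Cyp2c11 made up 12.9% to 21.0% in HepLPC livers, 4.8% to 10.3% in PBS livers and 13.0% to 20.2% in normal livers.

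The 250 bases before the start of Cyp2c24 and Cyp2c11 are shown because these genes moved in opposite directions. They are from RefSeq on build GRCr8, 5′ to 3′, with capitals for matches to TATAAA and AGGTCA.
Cyp2c24, chr1:246286091-246286340, plus strand: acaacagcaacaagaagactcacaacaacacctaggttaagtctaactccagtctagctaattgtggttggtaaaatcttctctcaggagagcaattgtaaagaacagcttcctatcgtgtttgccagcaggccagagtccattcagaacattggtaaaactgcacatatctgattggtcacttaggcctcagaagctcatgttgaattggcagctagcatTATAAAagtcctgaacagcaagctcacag
Cyp2c11, chr1:246174966-246175215, plus strand: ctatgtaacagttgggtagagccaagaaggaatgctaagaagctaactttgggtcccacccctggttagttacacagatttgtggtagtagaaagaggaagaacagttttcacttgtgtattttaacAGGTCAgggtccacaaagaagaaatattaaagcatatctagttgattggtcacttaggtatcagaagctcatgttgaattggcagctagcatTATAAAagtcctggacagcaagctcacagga

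The pair was identical at 72.4% of the 250 bases when aligned, with a longest identical stretch of 45 bases that begins at position -61 from the start in Cyp2c24 and -63 in Cyp2c11. Both hold TATAAA inside that stretch, at -29 and -31, and Cyp2c11 alone holds AGGTCA, a nuclear receptor half-site, at -123. TATAAA was found on either strand in 13.1% of 27457 promoters of the same length and in 13 of the 38 P450 genes with an entry (34.2%), and AGGTCA in 13.7% of promoters and 10 of the 38 (26.3%). A match describes the letters and is not a binding site shown by these data.

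The other Cyp2c genes did not pass the test in any comparison. Cyp2c13, a male-predominant steroid hydroxylase and the most abundant of the 46 genes on average, was at 1139.6, 1571 and 1379 RPKM in HepLPC livers, 1045, 1406 and 1083 RPKM in PBS livers and 2200.2, 2006 and 1225 RPKM in normal livers. Cyp2c7, a female-predominant retinoic acid hydroxylase, was at 1579, 549.9 and 1254 RPKM in HepLPC livers, 1258, 1257 and 464 RPKM in PBS livers and 1032, 2083 and 2211 RPKM in normal livers. In both genes the groups overlapped, and in Cyp2c7 a single library of each cirrhotic group was far below the others.

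Cyp2c22 was at 645, 875 and 928 RPKM in HepLPC livers, 793, 1157 and 969.6 RPKM in PBS livers and 791, 1052 and 846 RPKM in normal livers, with overlap throughout. Cyp2c6v1, inducible by phenobarbital, was at 673, 442 and 657 RPKM in HepLPC livers, 742, 725 and 460.2 RPKM in PBS livers and 791, 1073 and 637 RPKM in normal livers. Cyp2c23, an arachidonic acid epoxygenase, was at 631, 408 and 557 RPKM in HepLPC livers, 567, 503 and 482 RPKM in PBS livers and 684, 763 and 609.9 RPKM in normal livers. Of these 3 genes Cyp2c23 alone had PBS libraries that lay below every normal library (-0.40, SE 0.18, limma adjusted p = 0.189), and it was called when both libraries that stood apart were left out (-0.47, adjusted p = 0.0355).

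**Figure D3:**
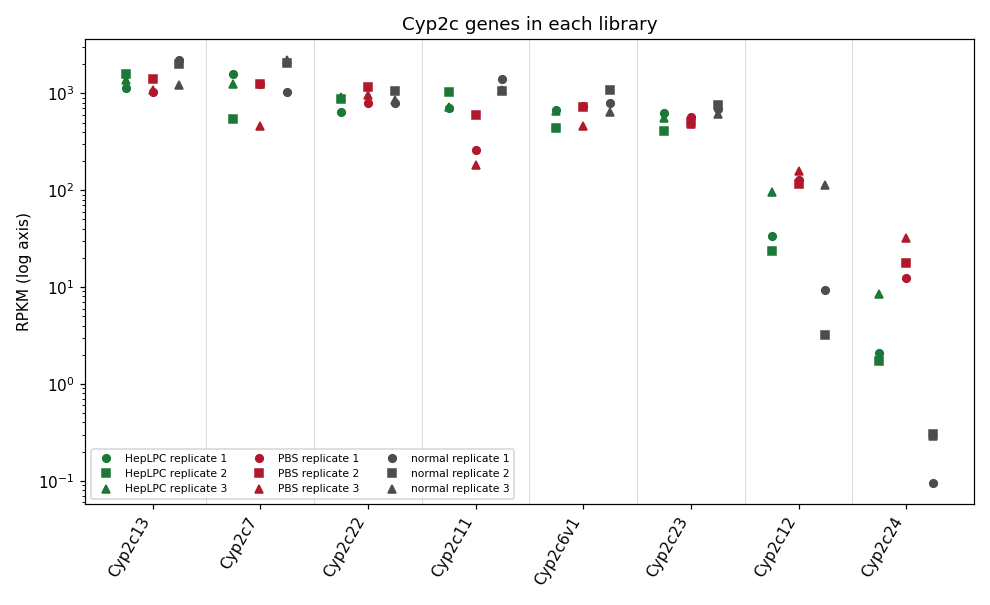
RPKM of the 8 Cyp2c genes (log axis) in HepLPC, PBS and normal livers, 1 point per library. Cyp2c11 and Cyp2c24 have groups that do not overlap, while Cyp2c12 spans 3.21 to 113 RPKM among the normal libraries alone.

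Cyp2c12, the steroid sulphate hydroxylase that is the female counterpart of Cyp2c11 in rat, was singled out after its values were seen. It was at 33.3, 23.4 and 95.7 RPKM in HepLPC livers, 128, 116 and 158 RPKM in PBS livers and 9.25, 3.21 and 113 RPKM in normal livers. The PBS libraries lay above all others, but normal replicate 3 was close to the lowest PBS library and 35.3 times the lowest normal library. The log2 fold change for PBS against normal was 2.98 (SE 1.01, limma adjusted p = 0.0929), and 4.35 (adjusted p = 0.00524) without normal replicate 3. The ratio of Cyp2c11 to Cyp2c12 was 21.3, 43.9 and 7.58 in HepLPC livers, 2.02, 5.14 and 1.16 in PBS livers and 151, 326 and 9.50 in normal livers. The lowest HepLPC and normal ratios, both in replicate 3, lay above every PBS ratio. This follows from Cyp2c11 being lowest and Cyp2c12 highest in the PBS libraries, so the ratio is not a separate result.

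Sex-predominant genes of rat liver were grouped to set these 2 beside others. The 5 male-predominant genes (Cyp2a2, Cyp2c11, Cyp2c13, Cyp3a2 and Cyp3a18) summed to 3371, 4579.5 and 4099 RPKM in HepLPC livers, 2988, 4099 and 1989 RPKM in PBS livers and 4780.2, 4663 and 5067 RPKM in normal livers. The 4 female-predominant genes (Cyp2a1, Cyp2c7, Cyp2c12 and Cyp3a9) summed to 1838, 729.5 and 1588 RPKM in HepLPC livers, 1575, 1577 and 783 RPKM in PBS livers and 1228, 2360.5 and 2498 RPKM in normal livers. The male-predominant sum was lower in every HepLPC and every PBS library than in any normal one. HepLPC replicate 2 was close to the lowest normal library. Cyp2c11 is itself in this sum, so the separation does not stand apart from that gene. Cyp2c13 and Cyp3a2 overlapped between each cirrhotic group and the normal libraries. PBS libraries lay below normal ones in Cyp2a2 and Cyp3a18, and HepLPC libraries did so in Cyp3a18. The female-predominant sums overlapped, and Cyp2c7 was the largest part of them. Their genes differed in sign for PBS against normal. The log2 fold changes were -0.90 for Cyp2c7 and -0.30 for Cyp2a1, but 2.98 for Cyp2c12 and 0.63 for Cyp3a9, none of them called by limma. The Y-linked transcripts Eif2s3y (24.4 to 32.1 RPKM) and Kdm5d (1.48 to 3.91 RPKM), looked up after the P450 values were seen, were present in all 9 libraries.

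Of 9 tested genes of the growth hormone axis, 0 were called in any comparison by limma, with 1 gene at an unadjusted p under 0.05 for PBS against normal and 0 called by voom. Ghr, the growth hormone receptor, was at 131 ± 9.64 RPKM in HepLPC livers, 115 ± 18.4 RPKM in PBS livers and 158 ± 7.91 RPKM in normal livers (SD, n = 3; -0.46 for PBS against normal, SE 0.14, adjusted p = 0.064). Stat5b, the transcription factor through which growth hormone acts on Cyp2c11, was at 8.79 ± 3.35, 9.38 ± 2.20 and 9.68 ± 0.858 RPKM in HepLPC, PBS and normal livers. Neither passed the test.

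Cyp2e1 was at 981, 887 and 1156 RPKM in HepLPC livers, 1238, 1080.3 and 1098 RPKM in PBS livers and 1511, 1819 and 1255 RPKM in normal livers. Both cirrhotic groups lay below every normal library, PBS replicate 1 and normal replicate 3 being almost level, and overlapped each other. The log2 fold changes were -0.41 for PBS against normal (SE 0.18, limma adjusted p = 0.173) and -0.59 for HepLPC against normal (SE 0.18, adjusted p = 0.338), and neither passed.

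In the Cyp2a subfamily, Cyp2a2, a male-predominant steroid hydroxylase, fell in PBS livers. It was at 313, 278 and 348 RPKM in HepLPC livers, 225, 265 and 182 RPKM in PBS livers and 328, 361 and 318 RPKM in normal livers, with PBS below both other groups. The log2 fold change was -0.59 for PBS against normal (SE 0.16, limma adjusted p = 0.0458) and 0.49 for HepLPC against PBS (SE 0.16, adjusted p = 0.163). The call for PBS against normal was lost in 9 of 16 alternatives, among them leaving out singly any normal library, PBS replicate 1 or 3 or HepLPC replicate 1 or 3 (adjusted p of 0.0555 to 0.167).

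Cyp2f4, known in rat for naphthalene metabolism in lung, fell in PBS livers too. It was at 25.3, 22.7 and 23.6 RPKM in HepLPC livers, 18.8, 18.8 and 18.5 RPKM in PBS livers and 32.2, 28.9 and 27.1 RPKM in normal livers. The 3 groups did not overlap, with HepLPC between the other two. Its log2 fold change was -0.62 for PBS against normal (SE 0.11, limma adjusted p = 0.00702), in all 16 alternatives, and 0.34 for HepLPC against PBS (SE 0.11, adjusted p = 0.156).

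The Cyp2b subfamily is the classical target of phenobarbital through CAR. Cyp2b3, its abundant member, was at 369.6, 412 and 368 RPKM in HepLPC livers, 369, 419 and 413 RPKM in PBS livers and 404, 335 and 441 RPKM in normal livers, with overlap throughout. Cyp2b2, given here because its HepLPC libraries lay below all others, was at 5.04, 5.44 and 9.42 RPKM in HepLPC livers, 18.3, 21.9 and 20.7 RPKM in PBS livers and 30.3, 27.2 and 10.7 RPKM in normal livers. Cyp2b1 was at 0.775, 0.468 and 1.40 RPKM in HepLPC livers, 1.80, 3.07 and 2.79 RPKM in PBS livers and 2.31, 3.66 and 1.44 RPKM in normal livers. Both genes were lower in every HepLPC library than in any other library, while PBS and normal libraries overlapped.

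The log2 fold changes for HepLPC against PBS were -1.52 for Cyp2b2 (SE 0.35, limma adjusted p = 0.0516) and -0.93 for Cyp2b1 (SE 0.27, adjusted p = 0.107), and neither passed. Cyp2b2 was called with those 2 groups alone in the model (adjusted p = 0.0384), without normal replicate 3 (adjusted p = 0.0136) and without HepLPC replicate 3 (-1.77, adjusted p = 0.0484). Nr1i3, the gene of CAR, was at 3.23, 3.38 and 4.72 RPKM in HepLPC livers, 7.17, 9.29 and 11.1 RPKM in PBS livers and 8.52, 7.96 and 5.41 RPKM in normal livers. It was lower in every HepLPC library than in any other, and fell by 1.09 against PBS (SE 0.21, adjusted p = 0.0251). This call was lost in 6 of 16 alternatives, among them without PBS replicate 2 or 3 or HepLPC replicate 1 or 2 (adjusted p of 0.0676 to 0.112).

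The promoters of Cyp2b1 and Cyp2b2 are shown from RefSeq on build GRCr8. This pair may share reads, and their values are uncertain for that reason. The windows lie before the start, so their identity does not show whether reads are shared. Capitals mark GCGTG, the core recognized by the aryl hydrocarbon receptor.
Cyp2b1, chr1:90645869-90646118, plus strand: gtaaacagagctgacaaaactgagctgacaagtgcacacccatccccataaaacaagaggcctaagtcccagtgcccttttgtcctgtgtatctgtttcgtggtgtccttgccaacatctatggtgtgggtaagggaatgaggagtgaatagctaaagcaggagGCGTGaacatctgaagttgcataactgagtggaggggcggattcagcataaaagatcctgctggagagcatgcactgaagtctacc
Cyp2b2, chr1:90722031-90722280, plus strand: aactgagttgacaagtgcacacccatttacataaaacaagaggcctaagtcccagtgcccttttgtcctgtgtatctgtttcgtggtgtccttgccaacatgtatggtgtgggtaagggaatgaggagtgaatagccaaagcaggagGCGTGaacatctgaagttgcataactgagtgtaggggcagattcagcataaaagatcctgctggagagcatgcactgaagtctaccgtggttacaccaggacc

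The 2 windows were identical at 90.0% of the 250 bases when aligned, with an identical stretch of 72 bases that begins at -204 in Cyp2b1 and -221 in Cyp2b2. GCGTG lay at -86 and -103 and was found on either strand in 27.2% of all promoters and in 8 of the 38 P450 genes (21.1%).

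The remaining Cyp2 subfamilies had no called gene in any comparison. Cyp2d2, the most abundant of the 5 Cyp2d genes, which act on many basic drugs, was at 444, 546 and 503 RPKM in HepLPC livers, 517, 415 and 389.7 RPKM in PBS livers and 591, 472 and 513 RPKM in normal livers. All 5 Cyp2d genes had negative log2 fold changes for PBS against normal (-0.39 to -0.17) and positive ones for HepLPC against PBS (0.10 to 0.36), none past the test, and their groups overlapped. Cyp2d1 was called for PBS against normal when both libraries that stood apart were left out (-0.44, limma adjusted p = 0.0186).

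Cyp2j3, an arachidonic acid epoxygenase, was at 35.9, 54.2 and 46.1 RPKM in HepLPC livers, 47.6, 59.8 and 47.9 RPKM in PBS livers and 45.6, 65.1 and 39.7 RPKM in normal livers. Cyp2r1, a vitamin D 25-hydroxylase, was at 3.40, 3.50 and 3.68 RPKM in HepLPC livers, 3.47, 3.16 and 3.74 RPKM in PBS livers and 2.71, 3.22 and 3.41 RPKM in normal livers. Both varied little beyond the spread within groups. Cyp2t1 was at 10.9, 18.2 and 16.8 RPKM in HepLPC livers, 11.8, 15.1 and 11.5 RPKM in PBS livers and 12.5, 9.95 and 8.80 RPKM in normal livers. Cyp2u1, a fatty acid hydroxylase, was at 0.563, 1.09 and 1.31 RPKM in HepLPC livers, 0.578, 1.19 and 0.964 RPKM in PBS livers and 1.01, 1.07 and 1.15 RPKM in normal livers. The groups overlapped in both of these as well.

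The Cyp3a genes hydroxylate steroids and many drugs, and PXR induces several of them. Cyp3a2, male-predominant and the most abundant of the 7, was at 863, 1293 and 1309.5 RPKM in HepLPC livers, 1166, 1435 and 365 RPKM in PBS livers and 431, 831 and 1915 RPKM in normal livers. PBS replicate 3 was far below the rest of its group, and the normal libraries alone spanned 4.45-fold. Cyp3a18, also male-predominant, was at 346, 409 and 337 RPKM in HepLPC livers, 294, 396 and 176 RPKM in PBS livers and 426, 419 and 532 RPKM in normal livers, with all cirrhotic libraries below the normal ones. It did not pass for PBS against normal (-0.74, SE 0.26, limma adjusted p = 0.106) except without PBS replicate 2 (adjusted p = 0.0374). Cyp3a23/3a1 likewise passed only without PBS replicate 2 (-1.92, adjusted p = 0.0221), against -1.38 with all libraries (SE 0.49, adjusted p = 0.103).

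Cyp3a62, a member described in rat intestine and liver, rose in PBS livers. It was at 5.58, 8.20 and 11.9 RPKM in HepLPC livers, 11.9, 17.5 and 15.1 RPKM in PBS livers and 8.45, 7.08 and 4.74 RPKM in normal livers. PBS libraries lay above normal ones, and HepLPC libraries reached from the normal to the PBS level. The log2 fold change was 1.04 for PBS against normal (SE 0.27, limma adjusted p = 0.0367) and -0.76 for HepLPC against PBS (SE 0.27, adjusted p = 0.19). The call was lost in 8 of 16 alternatives, among them leaving out singly any normal library or PBS replicate 2 or 3 (adjusted p of 0.0518 to 0.128). Nr1i2, the gene of PXR, was at 34.3 ± 1.59, 37.0 ± 5.55 and 35.7 ± 2.84 RPKM in HepLPC, PBS and normal livers, and the log2 fold change for PBS against normal was 0.04 (adjusted p = 0.865).

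The Cyp4a genes, omega-hydroxylases of fatty acids and classical targets of PPARA, split in PBS livers: Cyp4a3 fell and Cyp4a8 rose. Cyp4a3 was at 197, 205 and 176 RPKM in HepLPC livers, 167, 179 and 155 RPKM in PBS livers and 211, 303 and 458 RPKM in normal livers. Every cirrhotic library lay below every normal one, and the normal libraries spread over 2.17-fold. For PBS against normal the log2 fold change was -0.88 (SE 0.24, limma adjusted p = 0.0458) and 0.21 for HepLPC against PBS (SE 0.24, adjusted p = 0.695). The call was lost in 11 of 16 alternatives, among them leaving out both libraries that stood apart (-0.88, adjusted p = 0.0556) and leaving out singly normal replicate 2 or 3, any PBS library or HepLPC replicate 1 or 3 (adjusted p of 0.0621 to 0.152).

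Cyp4a8 was at 16.1, 14.3 and 14.1 RPKM in HepLPC livers, 14.6, 19.9 and 16.7 RPKM in PBS livers and 3.24, 11.9 and 2.13 RPKM in normal livers. The 6 cirrhotic libraries lay above the 3 normal ones and close together, and normal replicate 2 was far above the other two normal libraries. Its log2 fold change was 1.69 for PBS against normal (SE 0.42, limma adjusted p = 0.0332), -0.18 for HepLPC against PBS (adjusted p = 0.843) and 1.51 for HepLPC against normal (SE 0.42, adjusted p = 0.294). Without normal replicate 2 the value for HepLPC against normal was 2.12 (adjusted p = 0.0242). The call for PBS against normal was lost in 8 of 16 alternatives, among them leaving out singly normal replicate 1 or 3 or any PBS library (adjusted p of 0.0555 to 0.112).

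The promoters of Cyp4a8 and Cyp4a3, which lie in 1 cluster on chromosome 5, are shown from RefSeq on build GRCr8 because these 2 genes moved in opposite directions. Capitals mark TTCNNNGAA, the motif bound by STAT factors, in Cyp4a8 and AGGTCA in Cyp4a3.
Cyp4a8, chr5:133970227-133970476, minus strand: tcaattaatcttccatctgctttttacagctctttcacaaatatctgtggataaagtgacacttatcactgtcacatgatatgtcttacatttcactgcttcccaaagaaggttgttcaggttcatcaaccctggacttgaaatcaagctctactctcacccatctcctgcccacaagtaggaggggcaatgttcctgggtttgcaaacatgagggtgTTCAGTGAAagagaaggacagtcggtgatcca
Cyp4a3, chr5:134352237-134352486, minus strand: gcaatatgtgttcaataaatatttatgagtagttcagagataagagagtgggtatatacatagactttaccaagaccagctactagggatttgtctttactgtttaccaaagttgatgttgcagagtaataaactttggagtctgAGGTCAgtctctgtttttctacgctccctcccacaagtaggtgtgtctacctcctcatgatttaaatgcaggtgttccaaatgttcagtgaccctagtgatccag

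This pair was identical at 65.2% of the 250 bases when aligned, and its longest identical stretch was 12 bases. TTCNNNGAA lay at -32 in Cyp4a8, and was found in 7.5% of all promoters and in 4 of the 38 P450 genes (10.5%), and AGGTCA lay at -105 in Cyp4a3. The windows of Cyp4a3 and Cyp4a2 were identical at 94.4% of bases. These 2 genes may share reads, but the windows lie before the start and transcripts were not compared.

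Cyp4a2, the most abundant of the 4, was at 412, 529.6 and 134 RPKM in HepLPC livers, 297, 345 and 249.9 RPKM in PBS livers and 391, 819 and 1048 RPKM in normal livers. Cyp4a1 had 57.6, 25.2 and 56.7 RPKM in HepLPC livers, 34.0, 40.2 and 36.5 RPKM in PBS livers and 40.7, 51.0 and 74.1 RPKM in normal livers. In both the PBS libraries lay below every normal library and neither passed the test (limma adjusted p = 0.15 and 0.315). Ppara itself was at 5.61 ± 0.835, 8.01 ± 1.98 and 7.77 ± 1.90 RPKM in HepLPC, PBS and normal livers, with a log2 fold change of 0.04 for PBS against normal (adjusted p = 0.928).

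Cyp4b1, an enzyme known from lung that activates protoxins, rose in PBS livers. It was at 5.33, 5.70 and 6.40 RPKM in HepLPC livers, 9.36, 8.84 and 10.5 RPKM in PBS livers and 5.64, 5.18 and 4.21 RPKM in normal livers. PBS libraries lay above all others, and HepLPC and normal libraries overlapped. It was 0.82 higher on the log2 scale for PBS against normal (SE 0.13, limma adjusted p = 0.00487), in all 16 alternatives. Against PBS it fell by 0.64 in HepLPC livers (SE 0.13, adjusted p = 0.0385), a call lost in 13 of 16 alternatives, among them leaving out any single library (adjusted p of 0.0505 to 0.169) and leaving out both that stood apart (-0.64, adjusted p = 0.07).

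Cyp4f1, a leukotriene and fatty acid hydroxylase and the most abundant of the 5 Cyp4f genes, was at 251, 238 and 269 RPKM in HepLPC livers, 215, 243 and 182 RPKM in PBS livers and 295, 259.7 and 277 RPKM in normal livers. Cyp4v3, whose human counterpart hydroxylates fatty acids in the eye and liver, was at 91.5, 67.3 and 79.9 RPKM in HepLPC livers, 70.8, 83.7 and 80.3 RPKM in PBS livers and 113, 105 and 83.6 RPKM in normal livers. Neither passed the test for PBS against normal (limma adjusted p = 0.111 and 0.196), but both did after the median of ratios rescaling, Cyp4f1 at -0.67 (adjusted p = 0.0352) and Cyp4v3 at -0.63 (adjusted p = 0.0353).

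**Figure D4:**
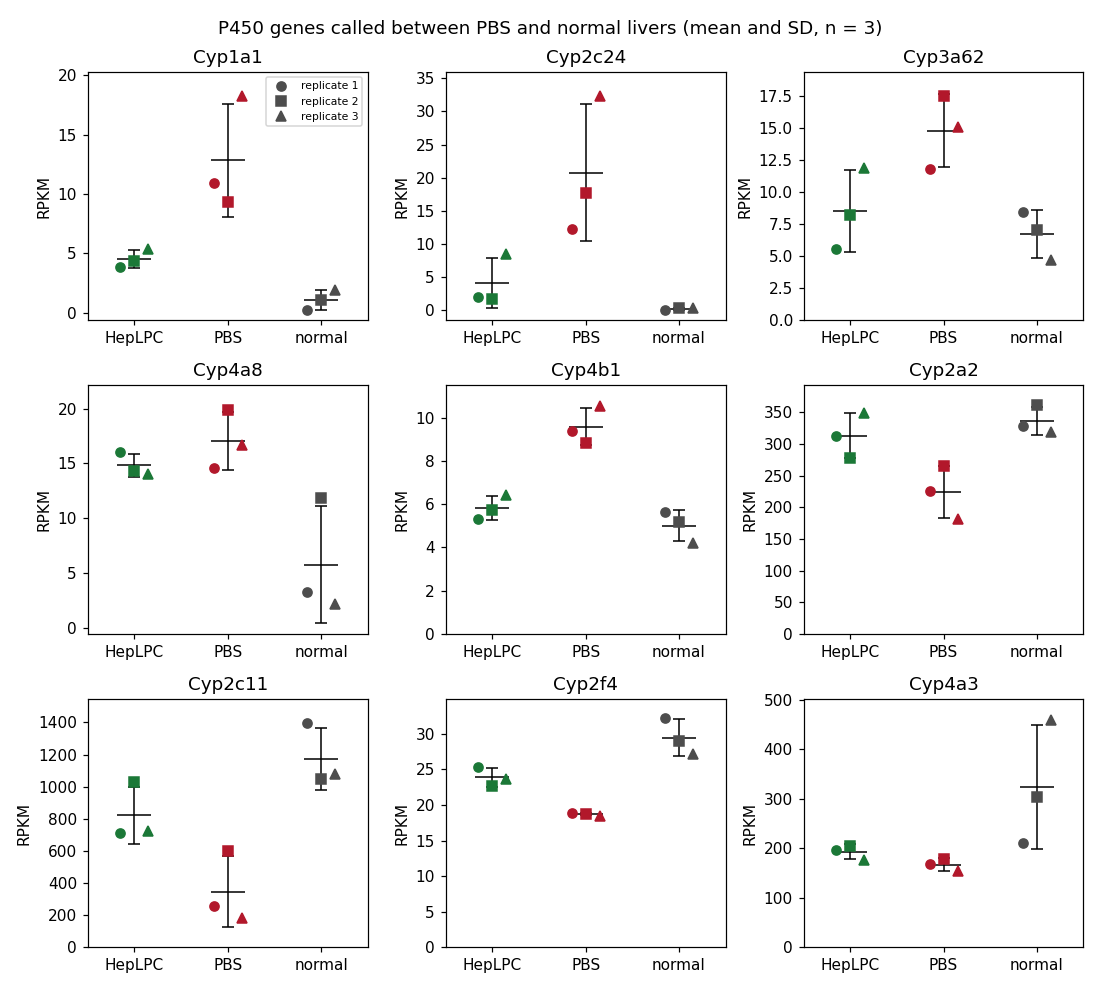
RPKM of the 9 P450 genes called in any comparison, in HepLPC, PBS and normal livers, with 1 marker per library and the mean ± SD of each group. PBS libraries stand above normal ones for Cyp1a1, Cyp2c24, Cyp3a62, Cyp4a8 and Cyp4b1 and below them for Cyp2a2, Cyp2c11, Cyp2f4 and Cyp4a3.

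P450 genes varied more among the normal livers than most genes did. The range of the 3 libraries exceeded 1 on the log2 scale in 5 of the 46 genes in HepLPC livers (10.9%, against 9.98% of all tested genes), in 8 in PBS livers (17.4%, against 6.36%) and in 12 in normal livers (26.1%, against 2.97%). The median range in normal livers was 0.48 over the P450 genes and 0.24 over all genes. Among normal livers the highest library was 35.3 times the lowest for Cyp2c12, 30.7 times for the pseudogene Cyp3a71-ps, 5.59 times for Cyp4a8, 4.45 times for Cyp3a2 and 2.68 times for Cyp4a2. For Cyp2c12, Cyp3a71-ps, Cyp3a2 and Cyp4a2 the highest was normal replicate 3, and for Cyp4a8 it was normal replicate 2.

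**Figure D5:**
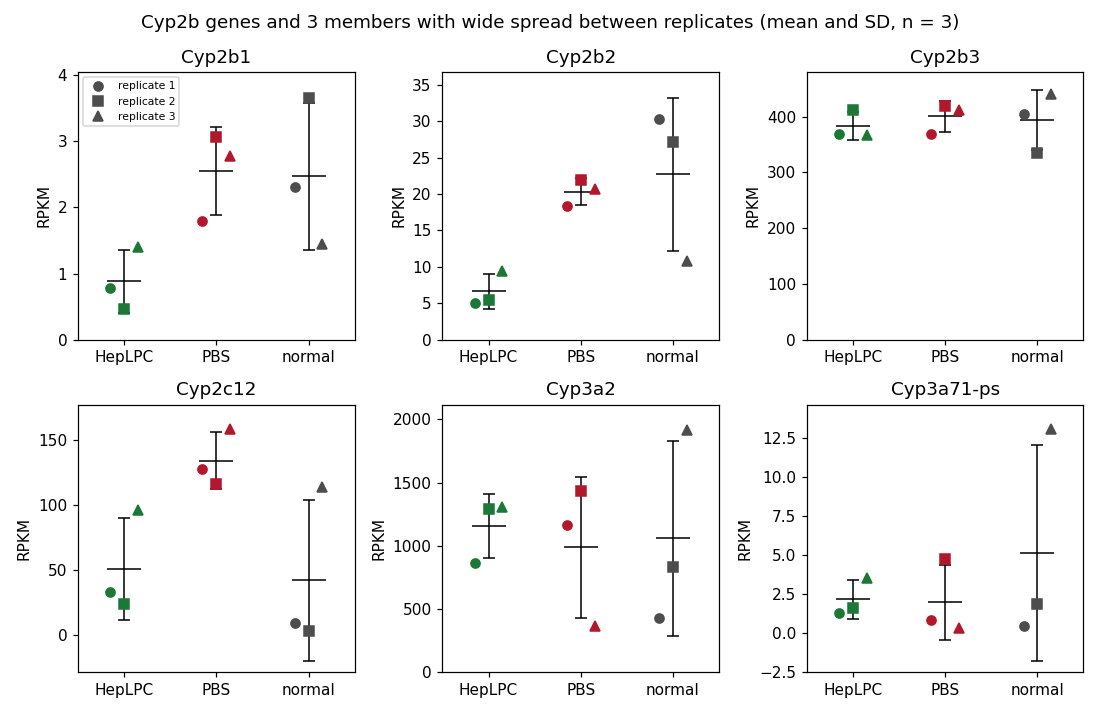
RPKM per library of Cyp2b1, Cyp2b2, Cyp2b3, Cyp2c12, Cyp3a2 and Cyp3a71-ps in HepLPC, PBS and normal livers, with the mean ± SD of each group. Cyp2c12, Cyp3a2 and Cyp3a71-ps have their highest normal value in replicate 3, and Cyp2b1 and Cyp2b2 are lowest in HepLPC livers.

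At the expression threshold, 7 of the 46 genes were under 1 RPKM in at least 1 library: Cyp1a1, Cyp2b1, Cyp2c24, Cyp2j10, Cyp2u1, Cyp3a71-ps and Cyp4f17. Those just inside were Cyp2j10, at 0.957 ± 0.319, 1.36 ± 0.265 and 0.616 ± 0.328 RPKM, and Cyp4f17, at 0.824 ± 0.368, 0.965 ± 0.288 and 1.04 ± 0.159 RPKM, in HepLPC, PBS and normal livers (SD, n = 3). Just outside were Cyp2s1, whose highest library had 0.593 RPKM, and Cyp1b1. Of the 16 rows under the threshold, 6 were at 0 in every library.

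The partners and regulators of these enzymes were read from lists chosen with earlier results known. Of 8 tested electron transfer genes 1 rose in PBS livers against normal, Por, the P450 oxidoreductase, and 0 changed by limma in HepLPC livers against PBS (2 at an unadjusted p under 0.05, 0 by voom). Por was at 33.9, 28.9 and 29.9 RPKM in HepLPC livers, 45.0, 38.6 and 62.8 RPKM in PBS livers and 25.9, 23.9 and 29.6 RPKM in normal livers, with PBS above all others. The log2 fold change was 0.83 for PBS against normal (SE 0.18, limma adjusted p = 0.0172), lost in 4 of 16 alternatives, among them without normal replicate 1 or 2 or PBS replicate 3 (adjusted p of 0.0503 to 0.0763). Of 10 tested xenobiotic receptors and cofactors 0 were called for PBS against normal (4 at an unadjusted p under 0.05, 1 by voom) and 1, Nr1i3, for HepLPC against PBS. The median log2 fold change was 0.09 over the electron transfer genes and 0.30 over the receptors for PBS against normal, with 0.18 over all genes, and -0.05 and -0.32 for HepLPC against PBS, with -0.14 over all genes.

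Of 13 hepatocyte transcription factors and 12 genes of haem synthesis and breakdown, 0 were called in the comparisons of PBS with normal and HepLPC with PBS by limma and by voom. At an unadjusted p under 0.05 there were 2 and 0 of the factors, and 4 and 1 of the haem genes. Hnf4a, a factor that many P450 promoters bind, was at 103, 71.4 and 87.6 RPKM in HepLPC livers, 82.5, 102 and 94.0 RPKM in PBS livers and 75.3, 73.8 and 92.8 RPKM in normal livers, with overlap throughout (0.20 for PBS against normal, adjusted p = 0.471).

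Of 10 tested P450 genes of other families, 3 rose and 1 fell in PBS livers against normal. Cyp17a1, the steroid 17-hydroxylase, rose by 1.11 (SE 0.16, limma adjusted p = 0.0023) in all 16 alternatives. Its levels were low, at 3.27 ± 0.68 RPKM in PBS livers and 0.97 ± 0.25 RPKM in normal livers (SD, n = 3). Cyp7a1, which starts the classical route to bile acids, rose by 2.18 (adjusted p = 0.0338), Cyp26a1, which clears retinoic acid, rose by 1.35 (adjusted p = 0.0413), and Cyp39a1, an oxysterol hydroxylase, fell by 0.44 (adjusted p = 0.0414). Each of these last 3 calls was lost in 9 of 16 alternatives, among them without any normal library or PBS replicate 1 or 3 for Cyp7a1 (adjusted p of 0.0501 to 0.108), without normal replicate 1 or 3 or any PBS library for Cyp26a1 (adjusted p of 0.0605 to 0.14), and without any normal or PBS library or HepLPC replicate 3 for Cyp39a1 (adjusted p of 0.06 to 0.145). Without both libraries that stood apart, Cyp7a1 was at 1.65 (adjusted p = 0.0547) and Cyp26a1 at 1.20 (adjusted p = 0.0671). For HepLPC against PBS 0 of the 10 were called (3 at an unadjusted p under 0.05, 0 by voom). Ephx1, the epoxide hydrolase that acts on P450 products, was 1 of 6 genes of its list to change, rising by 0.91 in PBS livers (adjusted p = 0.0257) and falling by 1.06 in HepLPC livers against PBS (adjusted p = 0.0326). The rise was lost in 6 of 16 alternatives, among them without normal replicate 1 or 3 or PBS replicate 1 or 3 (adjusted p of 0.0556 to 0.104), and the fall in 13 of 16, among them without any single library other than normal replicate 3 (adjusted p of 0.051 to 0.138) and without both libraries that stood apart (-0.91, adjusted p = 0.0815).

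Zonation was read from genes outside the P450 families. Of 9 tested pericentral genes 2 rose in PBS livers against normal, the ammonium transporter Rhbg by 2.41 (limma adjusted p = 0.000664) and the glutamate transporter Slc1a2 by 0.94 (adjusted p = 0.0163), while the pericentral Cyp2e1 did not pass. The Slc1a2 call was lost in 4 of 16 alternatives, among them without normal replicate 1 or 3 or PBS replicate 2 (adjusted p of 0.0552 to 0.0664). Normal livers held little of either transporter, with Rhbg at 1.06 ± 0.27 RPKM and Slc1a2 at 0.86 ± 0.35 RPKM (SD, n = 3). In PBS livers they were at 10.15 ± 3.06 and 2.58 ± 0.74 RPKM. For HepLPC against PBS 0 of the 9 were called (3 at an unadjusted p under 0.05, 0 by voom). The median log2 fold change of the 9 was 0.20 for PBS against normal, close to the 0.18 of all genes, and 0.26 for HepLPC against PBS, against -0.14 for all genes. For HepLPC against normal it was 0.65, against 0.05 for all genes, with 5 of the 9 higher at an unadjusted p under 0.05, 1 called by limma and 0 by voom. The called gene was Rhbg (1.86, adjusted p = 0.0464), lost in 13 of 16 alternatives, among them without any single library other than PBS replicate 2 (adjusted p of 0.0624 to 0.191). The 9 genes summed to 713.9 to 765 RPKM in HepLPC livers, 403 to 592 RPKM in PBS livers and 493 to 582 RPKM in normal livers, with every HepLPC library above all others. Of 10 periportal genes 1 changed, Hsd17b13, a lipid droplet protein, which fell by 1.08 in PBS livers (adjusted p = 0.00134) and rose by 0.78 in HepLPC livers against PBS (adjusted p = 0.0185). The rise was lost in 5 of 16 alternatives, among them without PBS replicate 2 or 3 or HepLPC replicate 1 (adjusted p of 0.0556 to 0.089). The median of the 10 was -0.22 in PBS livers against normal and 0.18 in HepLPC livers against PBS.

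Markers of other cell types moved with both comparisons. The 8 hepatocyte markers summed to 91736 to 104543.5 RPKM in HepLPC livers, 83150 to 92572 RPKM in PBS livers and 88702 to 106862 RPKM in normal livers, and 0 of them were called in any comparison by limma or by voom (1 at an unadjusted p under 0.05 in the comparison with normal livers and 1 after cell injection). Of 6 tested cholangiocyte markers all 6 rose in PBS livers against normal and all 6 fell in HepLPC livers against PBS, with sums of 10.4 to 20.1 RPKM in HepLPC livers, 50.3 to 174 RPKM in PBS livers and 8.88 to 10.4 RPKM in normal livers. By voom all 6 were called for PBS against normal, but 4 for HepLPC against PBS, without Krt19 and Spp1. Stellate and myofibroblast markers, 7 tested, had 5 higher in PBS livers against normal and 3 lower in HepLPC livers against PBS, with sums of 45.4 to 59.9, 73.5 to 118 and 25.01 to 29.1 RPKM in HepLPC, PBS and normal livers; voom called 5 and 2. Macrophage markers, 8 tested, had 2 higher in PBS livers against normal and 2 lower in HepLPC livers against PBS, with sums of 140.2 to 200.2, 254 to 359.6 and 125 to 159 RPKM in HepLPC, PBS and normal livers. Over all tested genes 10.4% rose for PBS against normal and 2.93% fell for HepLPC against PBS. Sox9 and Prom1 of the cholangiocyte markers and Loxl1 of the stellate markers were under 1 RPKM in every HepLPC and normal library. They met the expression rule only through PBS livers, so their places in these counts were partly set by the rule. No marker of these lists was at 0 in every library, and the part of the markers in the P450 results was not tested.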

How the data were processed

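Each library's table was deposited as RPKM per gene, per the file headers; HISAT2, StringTie and hg19, a human build, are named in the submitters' processing notes, yet rows carry rat symbols, so build and annotation are uncertain. How reads shared by paralogs were assigned is not stated. Groups came from sample titles. Whole reads were recovered from the RPKM values (tolerance 0.01 read) for 20956 of 20959 rows above 0 in 3 or more libraries. The test was limma 3.58.1 in R 4.3.3 (lmFit, eBayes with trend, 2-sided) on log2(RPKM + 1), which understates changes of low genes, for the 11124 rows that reached 1 RPKM in 3 or more of them. A single model held every library, with Benjamini-Hochberg adjustment over all rows and calls under 0.05. The fit was checked on simulated data.

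The 16 alternatives were a pseudocount of 0.1, no filter, median of ratios rescaling, the compared groups alone, the replicate block, both departing libraries left out, each of 9 libraries left out, and voom on recovered reads, the last added after seeing the data. Members and lists were chosen with earlier results of these data known. Values per library were given for called genes, the 12 most abundant, the leading gene of each subfamily, and the 3 markers; others named with values were chosen after these were seen. Of the 46 genes 45 matched GRCr8 symbols and 1 a synonym; 38 had a promoter (250 bases before the start), aligned with Biopython 1.88.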

Additional observations from a re-analysis of the deposited data

Results flagged for a closer look

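Cyp1b1, a hydrocarbon and oestrogen hydroxylase of family 1 that is better known outside the liver, was under the expression threshold and so entered no test, but every PBS library lay above every normal one. It had 11, 5 and 1 reads in HepLPC livers, 17, 48 and 34 reads in PBS livers and 1, 2 and 4 reads in normal livers. Mean levels were 0.0562, 0.318 and 0.0209 RPKM in HepLPC, PBS and normal livers. The difference was not tested, and levels this low rest on few reads.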

How the results depend on the processing

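No called gene of the 46 changed sign under any of the 16 alternatives. The same held for Por, Nr1i3, Ephx1, Cyp7a1, Cyp17a1, Cyp26a1, Cyp39a1, Rhbg, Slc1a2 and Hsd17b13. Signs of other called genes were not followed. The P450 median for HepLPC against PBS, 0.07, was -0.03 without PBS replicate 3, and rescaling turned the median of all genes from 0.18 to -0.04 for PBS against normal and from -0.14 to 0.04 for HepLPC against PBS. For PBS against normal, 1262 genes were called in all; rescaling gave 806, the replicate block 787, leaving out both departing libraries 3168, and leaving out 1 library 562 to 1809 (under a 1.5-fold change only without PBS replicate 1 or 2 or a HepLPC library). P450 genes higher were 5, but 3 without the filter and with rescaling and 3 to 5 without 1 library (3 without normal replicate 1, PBS replicate 2 or 3). P450 genes lower were 4, but 6 with rescaling, 2 without the filter and with the replicate block and 2 to 5 without 1 library (2 without normal replicate 2 or 3, PBS replicate 1 or 3, or HepLPC replicate 1 or 3). For HepLPC against PBS, 341 genes were called; rescaling gave 181, those 2 groups alone 86, the replicate block 198, and leaving out 1 library 90 to 398 (a change over 1.5-fold without any normal library, PBS replicate 3, or HepLPC replicate 1 or 2). P450 genes higher were 0, and 0 to 1 without 1 library (1, Cyp2c11, without PBS replicate 2). P450 genes lower were 2, Cyp2c24 and Cyp4b1. The count was 1 with the smaller pseudocount and without the filter (Cyp4b1) and with those 2 groups alone (Cyp2b2). It was 0 with rescaling and without both departing libraries. Without 1 library it was 0 to 2, and 2 only without HepLPC replicate 3 (Cyp2b2 and Cyp2c24), so the genes changed as well as the count. For HepLPC against normal, 9 genes were called, 0 without the filter, 1 with the replicate block, 16 without both departing libraries, 0 by voom and 1 to 14 without 1 library; P450 genes higher were 0, and 0 to 1 without 1 library (1, Cyp4a8, without normal replicate 2). Correlations of same-numbered deviations ran from -0.412 to 0.31. They cannot show whether replicate numbers pair the samples. The deviations are from means of 3 libraries and hold the trend with gene length of PBS replicate 1 and HepLPC replicate 2. Under the block Cyp2c12 (adjusted p = 0.0457) was called higher for PBS against normal and Cyp1a1 (adjusted p = 0.0337) lower for HepLPC against PBS. The cause of these changes was not tested. There were 3 libraries a group, paralogs may share reads and 2 libraries stood apart. Of the 46 genes only Cyp1a1, Cyp2c11, Cyp2c24, Cyp2f4 and Cyp4b1, for PBS against normal, were called in every alternative run. Among them Cyp2c24 met the expression rule only through cirrhotic livers, so its place here was partly set by the rule.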
